A study of Mus musculus with 2 samples.

Results

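The goblet-like epithelial cells of mouse colon tumour tissue were 164 barcodes out of 14408, 116 of 4896 in the library labelled KO and 48 of 9512 in the library labelled WT. A barcode was kept if it had at least 200 genes and under 20% mitochondrial unique molecular identifiers (UMIs, each standing for 1 captured RNA molecule), at least 10 UMIs per 10000 of Epcam, Krt8 and Krt18 together, and at most 1 UMI of Ptprc, the gene of the leukocyte protein CD45. Among these epithelial barcodes the members had at least 20 UMIs per 10000 of Muc2, Zg16, Clca1 and Fcgbp together, with at least 2 of the 4 detected, and under 50 per 10000 of the Paneth cell genes (the defensin family Defa, Lyz1 and Ang4). The members were thus chosen by the measured levels of these genes, above all of the 4 mucus genes, whose values below are a description.

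Goblet cells are secretory cells of the intestinal epithelium that make, glycosylate, fold, store and release the gel-forming mucin Muc2, the backbone of the mucus that separates bacteria from the colon wall. They arise from crypt progenitors when Notch signalling is low and the transcription factor Atoh1 is active, and Spdef then drives their maturation. Goblet cells differ along the crypt, with Reg4 and Kit marking secretory cells of the crypt base and Clca1, Fcgbp and Zg16 well known from cells that release mucus nearer the surface.

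The study asks how Ecm1, an extracellular matrix protein gene, and Sqstm1, the gene of the autophagy receptor p62, shape the tumour's immune cells, in particular through Cxcl1 and the recruitment of neutrophils. The library labelled KO came from ECM1Flox/Flox mice with Villin-Cre, in which Cre acts in the intestinal epithelium, and the library labelled WT from ECM1Flox/Flox mice without Cre, so that both carried the floxed alleles. The sources used here do not give the number, age or sex of the animals, the tumour model or which exons the loxP sites flank. Each genotype had 1 library, so each difference between them is a difference between 2 libraries, with no replicate check, no test and intervals (95%) that cover counting error only.

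The libraries held 75024663 and 59189995 UMIs, in the order labelled KO and labelled WT, which is kept throughout. The members held 1981708 and 462411 UMIs, with medians of 14494 and 3695 UMIs per barcode, against 17577 and 8230 in the other epithelial barcodes. The libraries also differed in the sex genes, since Xist had 2415 and 0 UMIs in the members and the Y-linked Ddx3y 0 and 33. Genotype, sex and library preparation cannot be told apart here. Of the barcode sequences, 17 occurred in both libraries, and 1 of these was a member in the library labelled KO.

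Ecm1 was low in the members of both libraries. It had 26 UMIs in 15 of 116 barcodes (13.1 CPM, counts per 1000000 of the members' summed UMIs) and 6 UMIs in 5 of 48 barcodes (13.0 CPM). The ratio was 1.01 with an interval from 0.407 to 3.004, so a difference of 2-fold in either direction was not detectable at this depth. The other epithelial barcodes held more Ecm1, 42.1 and 35.3 CPM, and the members stood at 0.31 and 0.37 of those levels. Immune barcodes (at least 2 Ptprc UMIs, outside the epithelial gate) had an Ecm1 UMI in 21.1% and 11.2% of cells, at medians of 5194 and 2738 UMIs, against 12.9% and 10.4% of the members. After thinning to 1000 UMIs the shares were 3.87% and 2.91% in immune barcodes, 3.67% and 4.35% in members and 3.37% and 5.06% in the other epithelial barcodes. Ecm1 in the members thus gave no check of the deletion, and which part of it was free RNA was not tested. Sqstm1 had 121 and 160 CPM in the members, a ratio of 0.76 (0.58 to 1.00).

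Marker genes that the rule did not use were compared first. Spink4, a small secreted protease inhibitor of goblet cells, was detected in 108 of 116 and in all 48 members, at 22110 and 19270 CPM, and stood at 1309 and 5338 CPM in the other epithelial barcodes. Of a goblet marker list of 17 genes, 4 are those of the rule, and the other 13 were all more than 2-fold higher in the members than in the other epithelial barcodes in both libraries, beside 3.86% of all genes tested. The epithelial barcodes over the limit on Paneth cell genes, 89 and 174 and called defensin-rich below, shared most of these levels. Relative to them, 1 of the 13 markers was 2-fold higher in both libraries, Fer1l6, and none was 2-fold lower in both. Spink4 was higher in the defensin-rich barcodes, at 27610 and 56050 CPM, as was Ccl6, at 2248 and 3211, while Tff3 was at 4747 and 6542. Of other types, neutrophil markers stood out, with a summed level of 160 and 2089 CPM and no UMI in 48 of 116 and 3 of 48 members. Chga of enteroendocrine cells and Dclk1 of tuft cells had 0 UMIs in the members. The summed markers of enteroendocrine cells were at 16.2 and 17.3 CPM, of tuft cells at 14.6 and 15.1, of T cells at 47.9 and 8.65, of macrophages at 85.3 and 125, of mast cells at 45.9 and 93.0, and of B and plasma cells at 263 and 149. Endothelial and fibroblast markers had 16.2 and 15.1 CPM in the library labelled KO and 0 UMIs in the library labelled WT, and erythroid markers 125 CPM and 0. In immune barcodes, which should lack Muc2, 18.3% and 8.58% had a Muc2 UMI, and 4.23% and 2.75% after thinning to 1000 UMIs, against 96.3% and 97.8% of the thinned members (109 and 46 barcodes were deep enough). The 4-gene level was passed by 0 of 831 immune barcodes (up to 0.443%) and by 3 of 4441 (0.0676%, 0.0139 to 0.197).

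Members made up 4.26% of the epithelial barcodes in the library labelled KO (116 of 2726, exact Clopper-Pearson interval 3.53 to 5.08) and 2.15% in the library labelled WT (48 of 2233, 1.59 to 2.84). This gap was smaller without the limit for Paneth cell genes. That limit removed 18 of the 134 barcodes that met every other condition in the library labelled KO, and 49 of 97 in the library labelled WT. Without it the shares were 4.92% and 4.34%. The mucus-positive barcodes set aside in this way remained among the other epithelial barcodes, among the defensin-rich ones. Just inside the threshold, 10 and 1 members lay at 20 to 25 per 10000, and just outside it 9 and 2 epithelial barcodes with at least 2 of the genes lay at 15 to 20. A further 93 and 23 epithelial barcodes reached 20 per 10000 but had only 1 of the 4 genes detected. The condition of at least 2 genes left these out, and it too bears on the shares.

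The members ranged widely in mucus gene level and in depth. The 4-gene level ran from 20.1 to 1388 per 10000 in the library labelled KO, with a median of 116, and from 22.2 to 836, at a median of 167, in the library labelled WT. All 4 genes were detected in 32 of 116 and 8 of 48 members, and only 2 of them in 48 and 17. Where depth matters below, members are split at 5000 UMIs, a value chosen after the depths were seen, into 49 and 29 shallow and 67 and 19 deep barcodes.

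**Figure D1:**
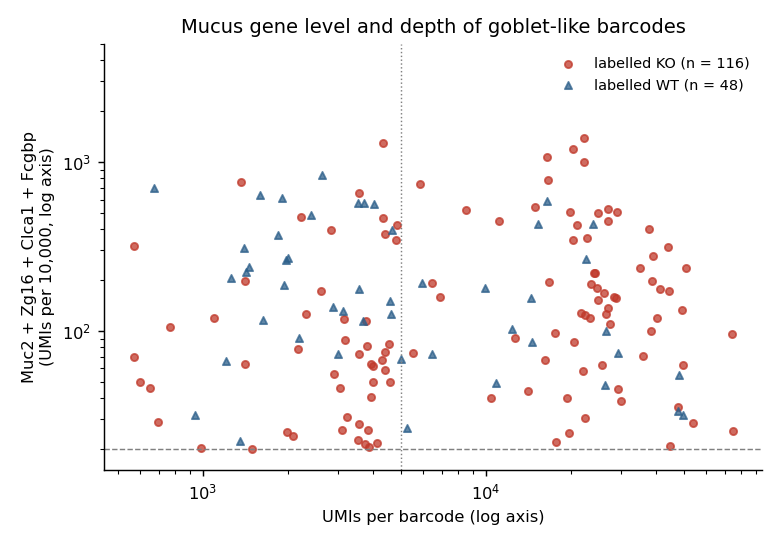
Each point is 1 goblet-like barcode, with its UMIs on the horizontal log axis and its summed Muc2, Zg16, Clca1 and Fcgbp level per 10000 UMIs on the vertical log axis, for the libraries labelled KO (116 circles) and WT (48 triangles). The dashed line is the threshold of 20 and the dotted line the depth of 5000 UMIs, with 67 circles and 19 triangles to its right.

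The genes of the rule make the mucus gel and the proteins bound to it. Muc2 was the only gene of the rule found in every member, at 16130 and 12860 CPM in the members and 281 and 595 CPM in the other epithelial barcodes. Its level per barcode had a median of 93.2 per 10000 (4.84 to 784) and of 113 (5.25 to 603). Zg16, a lectin-like protein that binds Gram-positive bacteria, was at 4653 and 1587 CPM. It was detected in 79 of 116 and 15 of 48 members, but the 5 richest barcodes held 70.7% and 91.8% of its UMIs. Clca1, a secreted metalloprotease that acts on Muc2, was at 529 and 519 CPM and was detected in 49 and 26 members. Fcgbp, which binds to Muc2 in the gel, was at 634 and 1352 CPM in 88 and 46 members. After thinning to 1000 UMIs, Zg16 was found in 43.1% and 26.1%, Clca1 in 30.3% and 30.4% and Fcgbp in 33.9% and 69.6% of members, so that Zg16 and Fcgbp stood in opposite order in the libraries.

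Tff3, the trefoil peptide of goblet cells, was at 3089 and 7344 CPM, 13.8 and 11.9 times its level in the other epithelial barcodes. Agr2, the disulfide isomerase needed to assemble Muc2 in the endoplasmic reticulum, was at 11020 and 3806 CPM, 14.8 and 5.11 times. Retnlb, an antimicrobial resistin-like protein, was at 254 and 125 CPM, and Ccl6, a chemokine found in goblet cells, at 1253 and 1155. Of 16 tested genes of the mucin and mucus layer list outside the rule, 6 were over 2-fold higher in the members in both libraries and 1 was lower, beside 3.86% and 3.36% of all genes. The membrane mucins Muc4 (123 and 71.4 CPM), Muc3a (87.3 and 51.9) and Muc1 (20.2 and 45.4) were among the higher ones, while Muc13 (940 and 1090) was 2.18 and 1.73 times higher and missed the 2-fold in 1 library. Muc5ac and Muc5b, the gel-forming mucins of stomach and airway, and the membrane mucin Muc16 had 0 UMIs in the members. The exception in the other direction was Itln1, a sugar-binding lectin, at 42.9 and 58.4 CPM against 456 and 465. It stood at 11110 and 5120 CPM in the defensin-rich barcodes. The limit on Paneth cell genes kept these out of the members but not out of the other epithelial barcodes, so this call follows in part from the rule. Relative to the defensin-rich barcodes, 4 of the 16 genes of this list were 2-fold higher in both libraries and 2 were 2-fold lower.

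**Figure D2:**
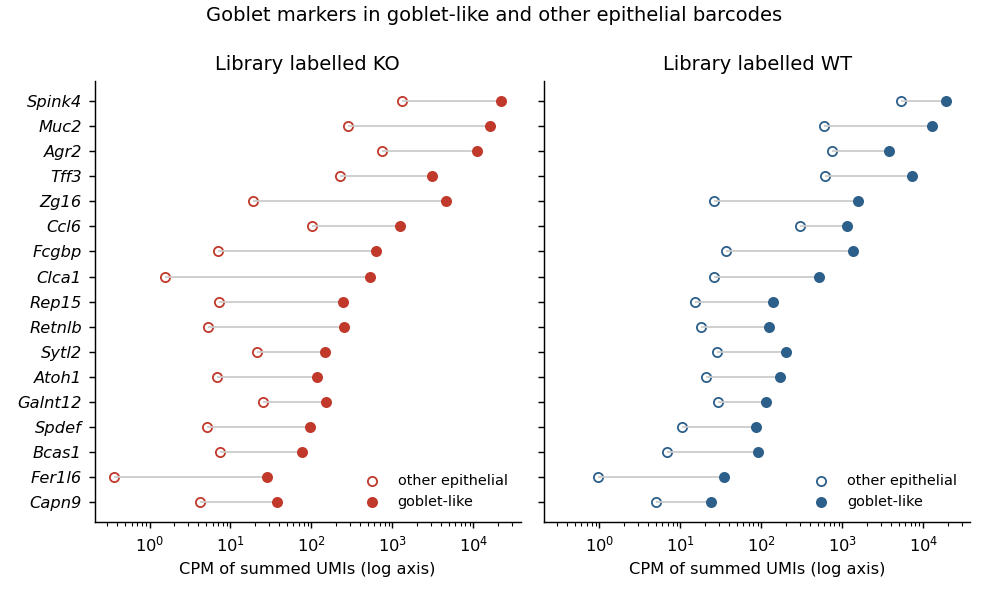
CPM (log axis) of the 17 goblet markers, sorted by level, in the goblet-like barcodes (filled) and the other epithelial barcodes (open) of the libraries labelled KO (left) and WT (right). In every row the filled point lies to the right of the open one, for example Spink4 at 22110 against 1309 and 19270 against 5338; Muc2, Zg16, Clca1 and Fcgbp chose the barcodes.

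Across all genes, 605 of 15692 tested (at least 50 UMIs over both groups and libraries) were at least 2-fold higher in the members in both libraries, which is 3.86%, and 528 were lower, 3.36%. Since the mucus genes chose these barcodes, the counts describe what accompanies them. Transcription factors of the secretory lineage were among them. Atoh1 was at 118 and 171 CPM against 6.88 and 20.9, and Spdef at 95.4 and 86.5 against 5.10 and 10.3. The defensin-rich barcodes held as much, 117 and 184 CPM of Atoh1 and 71.2 and 94.3 of Spdef. Creb3l1 (450 and 363 CPM) and Creb3l4 (111 and 36.8), membrane-bound factors of secretory cells, completed the 4 of 14 factors that were higher in both libraries. Foxa1, Foxa2, Foxa3, Klf4, Elf3 and Cdx2 were not among them, and Klf4, known from goblet cell maturation, was 1.36 and 1.57 times higher. Sox9, a factor of crypt base cells, stood at 0.82 and 0.73 of the level in the other epithelial barcodes.

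Of the genes of mucin glycosylation 19 of 28 tested were higher and none lower, beside 3.86% and 3.36% of all genes. Among the O-GalNAc transferases that start the chains, Galnt7 (470 and 510 CPM) was 6.44 and 5.33 times higher and Galnt5 (50.5 and 41.1) 14.7 and 11.0 times. The extending enzymes B3gnt7 (368 and 216 CPM) and Gcnt3 (99.4 and 77.9) were 14.4 and 12.0 and 14.5 and 6.12 times higher. The sialyltransferase St6galnac6 (438 and 223 CPM), the sulfotransferase Chst4 (60.6 and 45.4) and the sulfate transporter Slc26a2 (172 and 164) were also higher, as was the fucosyltransferase Fut2 (138 and 154). The median log2 ratio of the list was 1.92 and 1.62, beside -0.21 and 0.16 over all genes.

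Of the general folding genes of the endoplasmic reticulum 4 of 31 passed 2-fold in both libraries, namely Agr2, Pdia5, Ern2 and Txndc5. Beside this list and those that follow, 3.86% of all genes were higher and 3.36% lower. Ern2, the epithelial form of the stress sensor Ire1, was at 106 and 80.02 CPM, 7.25 and 5.94 times higher. The chaperone Hspa5 was 1.43 and 1.05 times higher, Hsp90b1 1.21 and 1.14 times, and Xbp1, the target of the Ire1 enzymes, 2.41 and 1.70 times. Of the granule and exocytosis genes 7 of 14 were higher, including Syt7, a calcium sensor of exocytosis (80.2 and 41.1 CPM, 17.2 and 5.99 times), the vesicle protein gene Sytl2 (148 and 203, 6.92 and 7.14 times) and its partner Rab27a (24.7 and 38.9, 10.5 and 9.92 times). The exocytosis list's exception was the complexin gene Cplx2, at 2.52 and 4.32 CPM against 12.8 and 10.3. Kdelr3, a receptor that returns proteins from the Golgi to the endoplasmic reticulum (82.8 and 32.4 CPM, 11.9 and 5.43 times), and Tmed3 (226 and 158 CPM, 2.67 and 2.04 times) were among the 4 of 25 trafficking genes that were higher. Of 6 Paneth cell markers outside the rule 3 were lower and 1, Nupr1, was higher (943 and 759 CPM against 270 and 261). The limit on Paneth cell genes bears on this count, since the defensin-rich barcodes are in the comparison group only and Itln1, among the lower ones, is highest there.

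By the smaller of the libraries' ratios to other epithelium, 12 genes outside the rule ranked highest, of which Fer1l6 is also a listed goblet marker. Ccn3, a secreted matricellular protein, was at 513 and 385 CPM against 5.82 and 5.41, which is 88.2 and 71.1 times. Klk1, tissue kallikrein, was at 1978 and 1471 CPM (27.8 and 27.0 times). Hsd11b2, which inactivates glucocorticoids, was at 739 and 420 CPM (23.6 and 27.6 times). Best2, an anion channel of colonic goblet cells, was at 113 and 64.9 CPM (73.2 and 22.9 times). Fer1l6, a ferlin (28.3 and 34.6 CPM), the sulfotransferase gene Gal3st2c (49.0 and 51.9), the sialyltransferase gene St6gal1 (41.9 and 82.2), Sybu (18.2 and 13.0), Rasd2 (19.7 and 23.8), Cacna2d2 (11.6 and 17.3), Scgb1b3 (107 and 36.8) and the pentraxin gene Mptx1 (940 and 789) completed the set. Mptx1 sat in few cells, since 5 barcodes held 97.8% and 91.5% of its UMIs. Against the defensin-rich barcodes, Gal3st2c, Scgb1b3, Mptx1 and St6gal1 did not pass 2-fold in both libraries, while the other genes of the set did. Their log2 ratios there were 0.73, 0.59 and 0.44 in the library labelled WT, and for St6gal1 0.46 in the library labelled KO.

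Stem and proliferation genes stood lower. Beside the lists given here, 3.36% of all genes were lower in both libraries and 3.86% higher. Of the Wnt target and stem list 8 of 20 genes were lower in both libraries and none higher, among them Sox4 (264 and 454 CPM against 820 and 912), Nkd1 (213 and 156 against 553 and 344) and Wif1 (145 and 130 against 359 and 310). Lgr5, the crypt stem cell receptor, was at 18.2 and 58.4 CPM against 89.1 and 75.1, and so was lower past 2-fold in 1 library only. Of 23 cell cycle genes 15 were lower and none higher, including Top2a (42.4 and 21.6 CPM against 188 and 142) and Stmn1 (263 and 180 against 683 and 489). The 6 lowest ranked genes were Itln1, the histone genes H2ac4 and H2ac20, Nppb, Mptx2 and Scn2b, of which the last 5 had 1 to 8 UMIs in the members of the library labelled KO and at most 1 in the other. Itln1 ranked there against a group that includes the defensin-rich barcodes, where it was at 11110 and 5120 CPM. Of absorptive cell markers 3 of 15 were higher, including Guca2a, the uroguanylin-related peptide guanylin (362 and 398 CPM against 59.6 and 154), and 2 were lower.

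In summed UMIs, members with more mucus RNA held less stem cell RNA in both libraries, over bands of the level that chose them. From the band of 20 to 50 per 10000 (29 and 7 barcodes) through 50 to 200 (53 and 21) to 200 and more (34 and 20), the summed Wnt target and stem genes went from 2197 to 1776 to 633 CPM and from 2902 to 2692 to 410. Mucin glycosylation genes went from 2200 to 3385 to 5471 and from 1982 to 2872 to 5626 CPM. Atoh1 went from 102 to 118 to 129 and from 98.4 to 166 to 270 CPM, and Spdef from 62.4 to 88.1 to 129 and from 28.1 to 87.6 to 157. Median depth ran opposite ways over these bands, at 3929, 16214 and 20076 UMIs and at 10844, 4614 and 2202. The direction over the bands was the same in both libraries for each of these lists and genes, although 4 to 18 Spdef UMIs stood behind each band of the library labelled WT. In the lowest band labelled WT, barcodes of 49793, 47639 and 26486 UMIs held most of the 142310 summed UMIs. The part of depth in these trends was not tested. Cell cycle genes were highest in the lowest band, at 2146 and 1398 CPM, and at 927 and 994 CPM in the highest.

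Among themselves the members varied in sets of genes. Spink4, Agr2, Reg4, Ccn3 and Klk1, none of which the rule used, went together from barcode to barcode, with Spearman's rho between 0.70 and 0.85 for every pair in the library labelled KO (n = 116 barcodes) and between 0.59 and 0.79 in the library labelled WT (n = 48). In deep members alone the ranges were 0.56 to 0.81 (n = 67) and 0.42 to 0.89 (n = 19). The first set also went with Muc2, at 0.61 to 0.72 in the library labelled KO and at 0.07 to 0.43 in the other. Clca1, Fcgbp and Tff3 went together as well, at 0.33 to 0.46 and 0.49 to 0.63. Clca1 ran against the first set, at -0.51 to -0.36 and -0.38 to -0.29, but in deep members of the library labelled WT only at -0.34 to 0.02. Clca1, Fcgbp and Muc2 are genes of the rule. A barcode low in Muc2 was a member only where Zg16, Clca1 or Fcgbp raised the sum, and the part of this choice in the coefficients was not tested. Barcodes of 1 library share its preparation and its free RNA, and levels per 10000 in shallow barcodes rest on few UMIs, so these coefficients are descriptions. The pairs were singled out after their values were seen.

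Counts of barcodes describe the same pairs. Reg4, a secreted C-type lectin, reached 10 per 10000 in 41 of 116 members and Clca1 in 16, but both did in 1. In the library labelled WT the numbers were 10 and 12 of 48, and again 1 for both. Reg4 and Fcgbp reached it together in 3 of the 41 Reg4 barcodes, and in the library labelled WT in 5 of the 10. Clca1 and Fcgbp reached 10 per 10000 together in 10 of the 16 Clca1 barcodes and in 10 of 12. A small set of barcodes had Zg16 at 100 per 10000 or more, 11 and 3 of them. In these the 11 barcodes labelled KO held 2872 CPM of Clca1 against 288 in the remaining members, 3857 against 302 of Fcgbp and 10350 against 2342 of Tff3. The first set was mixed there, with Agr2 (7162 against 11420 CPM), Reg4 (1223 against 2827) and Spink4 (16410 against 22700) lower, Ccn3 at 476 against 517 and Klk1 higher, at 3208 against 1852. The 3 barcodes labelled WT had 1863 against 459 CPM of Clca1 and 3726 against 1245 of Fcgbp. They also had more of the first set, with Agr2 at 13950 against 3351, Reg4 at 1108 against 737, Spink4 at 67670 against 17100 and Klk1 at 6344 against 1252. Of these 3 barcodes, 1 with 15314 UMIs held most of the summed UMIs, at a median of 2642.

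**Figure D3:**
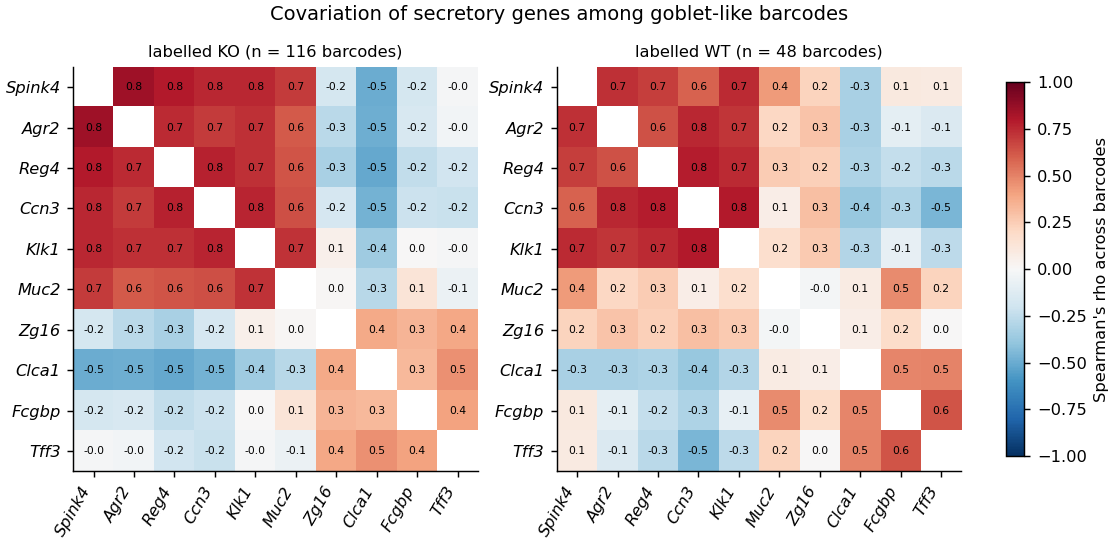
Spearman's rho across goblet-like barcodes between 10 secretory genes in the libraries labelled KO (n = 116) and WT (n = 48), coloured from -1 (blue) to 1 (red), with the diagonal left white. The red block at the upper left holds Spink4, Agr2, Reg4, Ccn3 and Klk1 (0.70 to 0.85 and 0.59 to 0.79), and a paler block at the lower right holds Clca1, Fcgbp and Tff3.

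The upstream sequences of 4 genes from these sets are shown because the genes vary together (Muc2 with Agr2 and Reg4 at 0.61 to 0.63 in the library labelled KO and 0.21 to 0.25 in the other) or apart (Fcgbp with Reg4 at -0.24 in both, but at 0.19 in deep members labelled WT). They are the 250 bases before the RefSeq start site in build GRCm38.p6, which is not the build of the count files, and are written 5′ to 3′ on the gene's strand, here the plus strand in each case. Of 19 genes looked up 9 had such a window, and Zg16, Clca1, Spink4, Tff3 and Ccn3 were not among them. Capitals mark CAGCTG (an E-box, the kind of site that basic helix-loop-helix factors such as Atoh1 bind), ACGTG (a core of sites bound by basic leucine zipper factors of the unfolded protein response) and TGTTTNC (the forkhead type of site, as of Foxa factors), each searched on both strands. The windows lie at chr7:141690090-141690339 (Muc2), chr12:35992675-35992924 (Agr2), chr3:98221906-98222155 (Reg4) and chr7:28070986-28071235 (Fcgbp).
Muc2: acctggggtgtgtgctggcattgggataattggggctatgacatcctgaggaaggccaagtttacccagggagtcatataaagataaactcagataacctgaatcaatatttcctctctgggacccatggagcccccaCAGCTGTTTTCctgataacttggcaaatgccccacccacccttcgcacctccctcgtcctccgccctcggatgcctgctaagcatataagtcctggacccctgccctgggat
Agr2: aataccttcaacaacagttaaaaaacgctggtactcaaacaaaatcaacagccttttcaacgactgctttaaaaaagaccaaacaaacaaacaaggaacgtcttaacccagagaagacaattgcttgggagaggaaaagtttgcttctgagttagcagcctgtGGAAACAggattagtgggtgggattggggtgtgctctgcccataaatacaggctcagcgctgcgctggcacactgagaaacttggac
Reg4: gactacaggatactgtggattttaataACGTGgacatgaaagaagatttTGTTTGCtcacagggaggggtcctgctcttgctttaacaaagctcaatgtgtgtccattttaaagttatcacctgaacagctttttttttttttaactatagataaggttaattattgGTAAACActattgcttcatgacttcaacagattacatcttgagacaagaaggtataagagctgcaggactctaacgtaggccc
Fcgbp: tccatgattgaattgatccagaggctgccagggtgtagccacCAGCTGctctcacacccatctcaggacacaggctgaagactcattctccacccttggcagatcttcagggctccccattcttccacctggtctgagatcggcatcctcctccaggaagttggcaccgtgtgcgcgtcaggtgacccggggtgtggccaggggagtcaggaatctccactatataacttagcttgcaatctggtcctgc
Muc2 held 1 E-box, which overlaps 1 forkhead-type match. Agr2 held 1 forkhead-type match, on the opposite strand, Reg4 held 2 and 1 ACGTG, and Fcgbp held 1 E-box. Another E-box, CAGATG, was searched too and had no match in the windows shown. Of 32851 RefSeq windows of this length, 13.0% held CAGCTG, 14.4% CAGATG, 16.6% ACGTG and 17.8% TGTTTNC. Single matches are thus frequent, and a match describes letters, not binding.

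Between the libraries, several genes that fold or accompany mucin differed, in both directions. Agr2 was 2.90 times higher in the library labelled KO (11020 against 3806 CPM, interval 2.76 to 3.04) and Reg4 3.56 times (2677 against 753, 3.19 to 3.98). In the other epithelial barcodes Agr2 was level, at 747 and 746 CPM, and Reg4 stood the other way, at 207 and 627. That group includes the 89 and 174 defensin-rich barcodes, which held 9227 and 7127 CPM of Agr2 and 4396 and 6766 of Reg4. The pooled levels thus do not describe the remaining epithelium. With the defensin-rich barcodes set aside, it held more Agr2 in the library labelled KO, while its Reg4 stayed lower in that library. Tff3 was lower in the library labelled KO, at 0.42 of the other (0.40 to 0.44), and so was Fcgbp, at 0.47 (0.43 to 0.52). In the pooled other epithelial barcodes both were lower too (223 against 617 and 6.96 against 36.5 CPM). Fcgbp was at 67.8 and 396 CPM in the defensin-rich barcodes. These held most of its pooled UMIs in the library labelled WT, but not in the library labelled KO. Without them Fcgbp was not lower in the library labelled KO. Muc2 itself was 1.26 times (1.22 to 1.29), Spink4 1.15 times (1.12 to 1.17) and Clca1 1.02 times (0.88 to 1.18). Averaged with equal weight per barcode, these became 0.89, 0.70 and 0.53.

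These ratios depended on which members were counted. In deep members Agr2 was at 11790 and 3811 CPM, but in shallow ones at 1216 and 3779, the reverse order. Reg4 likewise was at 2837 and 654 CPM in deep members and at 643 and 1293 in shallow ones. Spink4 was at 23410 and 16680 CPM in deep members and at 5674 and 33510 in shallow ones. Tff3 and Fcgbp were lower in the library labelled KO on both sides of the split, at 3140 against 5733 and 2446 against 16200 CPM, and at 579 against 994 and 1327 against 3316. In deep members their log2 ratios, -0.87 and -0.78, fell short of 2-fold. Without the limit on Paneth cell genes the log2 ratios of Agr2 and Reg4 were 0.49 and 0.18 in place of 1.53 and 1.83, and with at least 3 of the 4 genes required 0.79 and 0.60, so both fell short of 2-fold. Leaving out the 5 members of each library richest in S100a8 and S100a9 took Tff3 from -1.25 to -0.82.

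**Figure D4:**
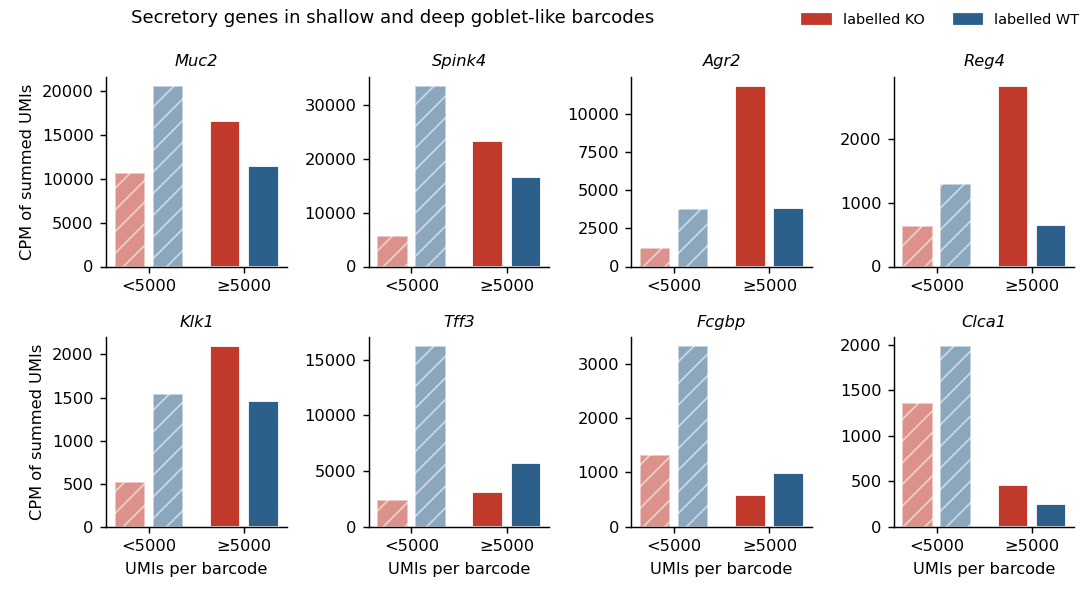
CPM of summed UMIs for 8 secretory genes in goblet-like barcodes under 5000 UMIs (hatched, 49 labelled KO and 29 labelled WT) and with at least 5000 (solid, 67 and 19), red for the library labelled KO and blue for WT, without error bars. Agr2, Reg4, Spink4, Muc2 and Klk1 are higher in the library labelled KO in deep barcodes and lower in shallow ones, while Tff3 and Fcgbp are lower in both.

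Over all 6179 genes with at least 50 summed UMIs in the members, 326 were at least 2-fold higher in the library labelled KO, 5.28%, and 362 at least 2-fold lower, 5.86%, at a median log2 ratio of -0.06. Scaled by median-of-ratios size factors, the counts were 452 and 254. Of the 17 goblet markers 3 were higher (Agr2, Zg16 and Retnlb) and 2 lower (Tff3 and Fcgbp), with a median of 0.14. The membrane mucin Muc1 was lower as well, at 0.44 (0.26 to 0.79). Zg16 and Retnlb were 2.93 and 2.03 times higher in summed UMIs, but 1.40 and 1.23 times with equal weight per barcode. Without the limit on Paneth cell genes the log2 ratio of Retnlb was -0.98, the reverse order. Of 13 goblet transcription factors only Creb3l4 passed 2-fold, at 111 against 36.8 CPM (3.02 times, 1.84 to 5.28). With equal weight per barcode it was 1.32 times, and no factor was higher past 2-fold under that weighting, without the limit on Paneth cell genes or with at least 3 of the 4 genes. Atoh1 was at 0.69 (0.53 to 0.90) and Spdef at 1.10 (0.78 to 1.59). None of the 24 glycosylation genes passed 2-fold in either direction, at a median of 0.08.

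Of 29 genes of endoplasmic reticulum folding 4 were higher and none lower, with a median log2 ratio of 0.44, beside 5.28% and 5.86% of all genes. With equal weight per barcode 4 were higher and 3 lower. Of 24 translocon and trafficking genes 2 were higher and none lower, with a median of 0.46, and with at least 3 of the 4 mucus genes required none was higher. The genes past 2-fold besides Agr2 were the isomerase gene Pdia6 (561 against 197 CPM), the Hspa5 cofactor genes Dnajb11 (179 against 84.3) and Sdf2l1 (173 against 73.5), and Kdelr3 and Copz2 in trafficking. Hspa5 was 1.63 times higher (1.44 to 1.85), while P4hb, another isomerase gene, was at 0.60 (0.53 to 0.68). In shallow members the median of the folding list was -0.32. Pdia6 was 2.85 times higher in the members and 2.25 times in the other epithelial barcodes.

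By the interval bound nearest to 1, the 12 genes that stood highest in the library labelled KO were headed by the ribosomal RNA repeat Rn18s-rs5 (28750 against 5097 CPM) and included the tight junction genes Cldn14 (101 against 6.49) and Cldn3 (1324 against 532). The others were Reg4, Agr2, Pdia6, the mitochondrial leucyl-tRNA synthetase gene Lars2 (707 against 234), the aldehyde dehydrogenase gene Aldh1b1 (89.3 against 19.5), Ceacam10 (401 against 141), Pck1 of gluconeogenesis (130 against 36.8), Ankrd9 and Sbspon. Cldn14 rested on 200 and 3 UMIs (15.6 times, 5.25 to 76.1) and Ankrd9 on 65 and 1 (15.2 times, 2.63 to 608). All of the 12 but Reg4 and Agr2 were also higher in the other epithelial barcodes, at 1.78 (Sbspon) to 5.07 times (Rn18s-rs5), with Cldn14 and Ankrd9 at 2.28 and Pck1 at 4.23 times. The exception of Reg4 and Agr2 holds for the pooled group only. It includes the defensin-rich barcodes, at 4396 and 6766 CPM of Reg4 and 9227 and 7127 of Agr2.

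The 12 genes that stood lowest were led by the nuclear long non-coding RNAs Neat1 (747 against 2061 CPM, ratio 0.36) and Malat1 (11280 against 26660, 0.42). The growth factor receptor gene Egfr (21.2 against 71.4), Duox2, whose oxidase makes hydrogen peroxide at the epithelial surface (93.9 against 238), the Wnt effector gene Tcf7l2 (158 against 366) and the phospholipid flippase gene Atp10b (168 against 372) followed, with Cnot6, Tob2, Khsrp, Nptn, Rsrp1 and Gtpbp2. Duoxa2, the partner of Duox2, was at 44.4 against 173 CPM. All 12 were lower in the other epithelial barcodes too, at 0.32 (Duox2) to 0.80 (Cnot6), with Neat1 at 0.46 and Malat1 at 0.54. The share of mitochondrial UMIs had a median of 2.10% and 3.23% in the members, and the part of such RNA composition in the other ratios was not tested.

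**Figure D5:**
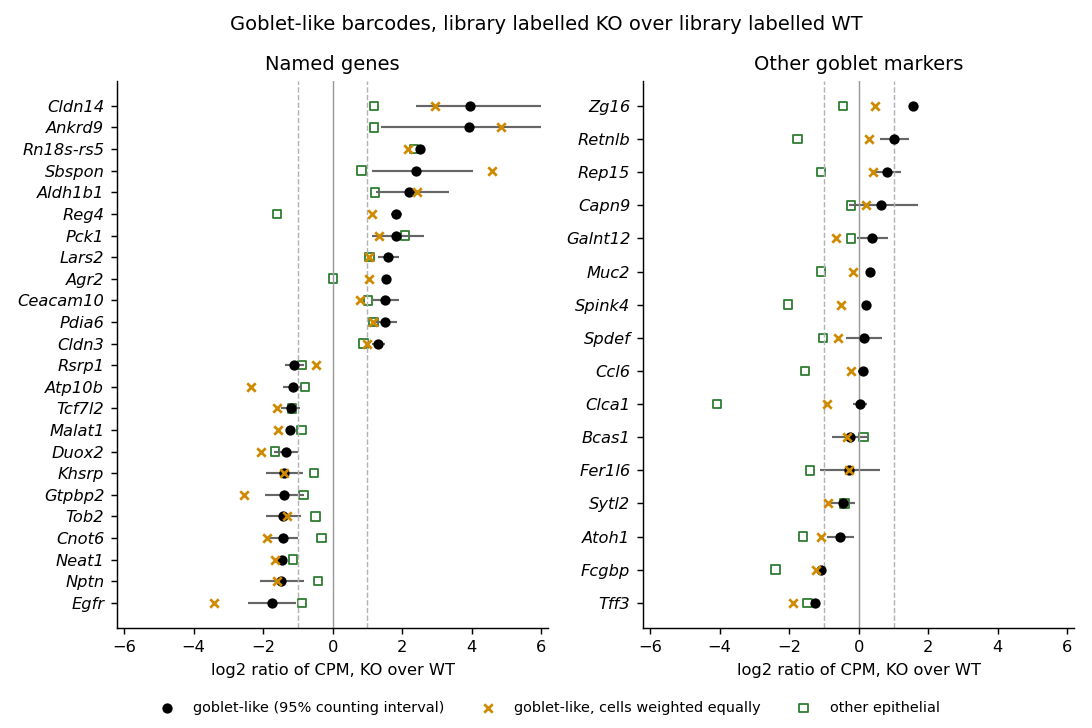
Log2 ratios of CPM, library labelled KO over library labelled WT, for the 24 genes named by rule (left) and the other goblet markers (right), in goblet-like barcodes summed (black, with 95% counting intervals drawn up to 6), with barcodes weighted equally (crosses) and in other epithelial barcodes (open squares). Dashed lines mark 2-fold. Reg4 and Agr2 lie above 1 in the goblet-like barcodes, while their squares, which pool in the defensin-rich barcodes, lie at 0.33-fold and 1.00-fold.

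Of the CXCR2 ligands, the neutrophil-recruiting chemokines the study turns on, Cxcl1 and Cxcl5 were low in the members and Cxcl2 less so. Cxcl1 was at 42.4 and 99.5 CPM against 178 and 299 in the other epithelial barcodes, and Cxcl5 at 15.6 and 36.8 against 167 and 140. Cxcl2 was at 155 and 515 against 246 and 603. Of the 6 ligands 3 (Cxcl1, Cxcl3 and Cxcl5) were lower than in the other epithelial barcodes past 2-fold in both libraries. Over all genes this share was 3.36%. Between libraries Cxcl1 stood at 0.43 (0.29 to 0.62) and Cxcl2 at 0.30 (0.25 to 0.36) of the library labelled WT, and these were the 2 ligands with enough UMIs. With equal weight per barcode Cxcl2 was at 0.97, and in shallow members it was higher in the library labelled KO, at 898 against 576 CPM. Immune barcodes had 4464 and 11560 CPM of Cxcl2.

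Neutrophil RNA in the members also differed between the libraries, and a link to the ligands was not tested. Beside 5.86% of all genes, all 5 tested neutrophil markers were lower in the members of the library labelled KO. With equal weight per barcode 2 of the 5 were lower past 2-fold. The summed list was at 160 and 2089 CPM in the members, 213 and 946 in the other epithelial barcodes and 21920 and 50880 in immune barcodes. It was thus lower in the library labelled KO in each of these groups. S100a8 was at 33.8 and 712 CPM, and 5 barcodes held 88.2% of its UMIs in the library labelled WT. In shallow members it was at 346 and 295 CPM, and the list's median log2 ratio was 0.23 in place of -4.40. Of the defining receptors Cxcr2 had 0 and 2 UMIs and Csf3r 1 and 6, and 48 of 116 and 3 of 48 members had no UMI of the list. Without the 5 members richest in S100a8 and S100a9 in each library the log2 ratio of Cxcl2 was -1.45 in place of -1.73, and that of Cxcl1 -1.33 in place of -1.23. The part of neutrophil RNA in the other ratios was not tested.

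Of 12 antimicrobial and injury genes 5 were lower in the library labelled KO, namely Lcn2, which sequesters bacterial siderophores (73.7 against 366 CPM), the lectin gene Reg3g (56.0 against 186), the acute-phase gene Saa1 (147 against 508), Duox2 and Duoxa2, and 2 were higher, Reg4 and Retnlb. Lypd8, which binds bacterial flagella, was at 2824 and 3672 CPM, and Pigr, the receptor that carries IgA across the epithelium, at 1354 and 1412. In the Wnt target and stem list 4 of 17 were lower, including Lgr5 (0.31, 0.18 to 0.53), Myc (0.33, 0.20 to 0.53), Axin2 and Prox1, and 1 was higher, Smoc2 (2.92, 1.53 to 6.23). Beside both lists, 5.86% of all genes were lower and 5.28% higher. With equal weight per barcode the Wnt target and stem counts were 6 higher and 6 lower, and without the limit on Paneth cell genes 3 and 1. None of 14 cell cycle genes passed 2-fold, but 7 were higher with equal weight and 6 of 13 with no Ptprc UMI allowed. The remaining lists rest on 1 to 4 genes each, beside 5.86% of all genes. Of 7 interferon-stimulated genes 2 were lower, Zbp1 and Cxcl10, and of 15 autophagy genes 2, Ulk1 and Atg16l1. Of 14 immediate early and heat shock genes 2 were lower, Dusp1 (420 against 893 CPM) and Hspa1b (28.3 against 67.0), of 9 hypoxia and glycolysis genes 1, Vegfa (47.9 against 123), and of 9 absorptive cell markers 4. Without the 5 deepest members of each library 3 of 4 tested absorptive markers were higher and none lower. None of 10 granule and exocytosis genes passed 2-fold.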

How the data were processed

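Both matrices came from Cell Ranger 7.2.0, per the file headers, and what the authors deposited are raw counts, whole numbers of UMIs for each gene in each barcode. The build was GRCm39, per the submitters' processing notes. The protocol in the labels describes bulk RNA extraction with random priming, so the sources used here do not give the capture chemistry.

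The goblet-like barcodes, the 30 gene lists (382 genes, 380 found) and the rule for named genes were chosen with earlier results of these data known. UMIs were summed over members per library and divided by their total to give CPM. A gene was called past 2-fold on the ratio of CPM, among genes with at least 50 summed UMIs, with a floor of 3 counts where a library had 0. Intervals of ratios are exact (binomial, given the gene's summed UMIs), and those of shares Clopper-Pearson. These cover counting error only, and 1 library per genotype allows no test. Sums, ratios and intervals were tested on simulated data.

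Named between libraries were the 12 higher and 12 lower genes by the interval bound nearest to 1, among genes past 2-fold whose CPM reached 50% of that in barcodes outside the epithelial gate and of whose UMIs the 5 richest barcodes held under 50%. Named against other epithelium were the 12 higher and 6 lower by the smaller log2 ratio. The rankings skipped genes of the rule, predicted and sex genes, and those of mitochondria, ribosomal proteins, haemoglobins, antibodies and T cell receptors. Of other lists the rule names the 2 of most UMIs past 2-fold in each direction; further list members were chosen after their values were seen, as were the pairs of genes compared across barcodes.

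Scrublet in scanpy 1.11.5 (seed 0) marked 2 and 0 barcodes by its automatic threshold, which is no working call, so doublets were kept, and their removal by expected rate (10 of 116 and 4 of 48 members) was an alternative. Alternatives also changed each threshold of the barcode rule, depth, weighting, size factors and the UMI filter. Python 3.11.15, numpy 2.4.6, scipy 1.17.1 and pandas 2.3.3 were used.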

Additional observations from a re-analysis of the deposited data

How the results depend on the processing

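Shares and counts of genes kept within the counting interval, or within 1.5 times, under the other alternatives than those given here. The share of members in epithelial barcodes became 3.19% (labelled KO) at a 4-gene level of 50, 2.49% and 1.39% with at least 3 of the 4 genes, and 4.34% (labelled WT) without the defensin limit. Genes 2-fold higher and lower between libraries numbered 831 and 782 with barcodes weighted equally, 951 and 1219 with at least 10 summed UMIs, 82 and 64 with at least 200, and 142 and 83 in members under 5000 UMIs, where 547 genes were tested. The higher genes numbered 491 without the 5 deepest members, and the lower 236 with at least 3 of the 4 genes. With median-of-ratios size factors the median of all genes moved from -0.06 to 0.05 and the calls to 452 higher and 254 lower. Against other epithelium, the lower genes numbered 960 without the defensin limit and 1179 with equal weights, the higher 397 with at least 200 UMIs, and 310 were higher and 103 lower with at least 10 UMIs in the members of each library. Changes of sign were listed for log2 ratios of at least 1 in size only. Without the defensin limit these were Retnlb (-0.98), Gfi1 (-0.27) and Cxcl5 (1.04), and without the 5 deepest members Gfi1 (-0.024). In members under 5000 UMIs they were Reg4 (-1.01), Agr2 (-1.64), Rsrp1 (0.054), Zg16 (-0.12), Retnlb (-1.40), Cxcl2 (0.64) and the neutrophil list (0.23). Smaller ratios, such as those of Muc2 and Spink4, also changed sign in members under 5000 UMIs. The cause was not tested. The depth split, the removal of the 5 members richest in S100a8 and S100a9 and the filter of 10 UMIs in each library were chosen after seeing the data. No paired analysis was possible because each genotype has 1 library. Depth limits genes like Ecm1, with 26 and 6 UMIs.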
